A study of Mus musculus with 6 samples.

Results

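The livers of mice that carried CT26 tumor cells injected into the spleen were compared with the livers of sham mice on day 21. This comparison took 4 of the 6 livers of the series, 2 labelled intra-S and 2 labelled sham, chosen by their labels alone. The labels give no more than these names, and the description of the groups follows the methods of the study. The CT26 line was derived from a colorectal carcinoma of a BALB/c mouse, and the splenic model used BALB/c mice, which receive the cells in the spleen so that they can reach the liver through the portal vein. Mice of the study were 6 to 10 weeks old. The sham mice received PBS in place of tumor cells. The intra-S livers are called metastasis livers here, after the name of the model at day 21. The number and size of tumor foci in the pieces that were sequenced are not given in the sources used here. RNA with poly(A) tails was sequenced from whole liver, so each value sums over hepatocytes, the other liver cells, blood cells and any tumor cells. CT26 cells carry the mouse genome, so that their transcripts cannot be told apart from those of the host.

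Hepatocytes make most plasma proteins, clear drugs and lipids, and form bile acids and urea. In an acute phase response, cytokines such as interleukin-6 (IL-6) act on hepatocytes through the transcription factor STAT3 and members of the C/EBP family, and the liver secretes large amounts of serum amyloid A, fibrinogen, haptoglobin and similar proteins. Many metabolic genes of hepatocytes are known to be less active in this state. Tumor growth in the liver is also known to bring in myeloid cells, above all neutrophils and macrophages, and to change the endothelium and the extracellular matrix.

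The counts summed to between 36048765 and 41214128 in these 4 livers, and 3 counts, the limit that an observed 0 still allows, stood for 0.0679 to 0.0875 CPM, the unit of counts scaled to a common library total. The limit allows for counting error and nothing else. CPM values here are scaled by the TMM factor of each library. The defining hepatocyte genes Alb, Apoa1, Ttr, Trf and Hnf4a were present in all 4 livers, as the label liver requires. The metastasis livers stood further apart from each other than the sham livers did. Of 7843 genes with at least 10 CPM in either metastasis liver, 1475 (18.8%) differed more than 2-fold between them, and 368 (4.69%) more than 4-fold. The same counts between the sham livers were 65 (0.899%) and 10 (0.138%) of 7227 genes. Each result is therefore given with the value of each metastasis liver, named liver 1 and liver 2.

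Across the 16370 genes that passed the filter on low counts, edgeR's quasi-likelihood test called 1110 genes higher (6.78%) and 646 lower (3.95%) in the metastasis livers at an adjusted p-value under 0.05. The median absolute log2 fold change was 2.41 for the higher and 1.53 for the lower genes. At least 4-fold differences were seen for 729 of the higher and 211 of the lower genes, and at least 16-fold differences for 227 and 59. The groups did not overlap for any called gene. Non-overlap in either direction was common over all tested genes, with 4975 genes (30.4%) above and 4905 (30%) below both sham livers in both metastasis livers. The spread in this test came from all 6 livers. They include 2 labelled intra-C, taken from the study's description as livers of mice given CT26 cells in the cecum. With only the metastasis and sham livers in the fit, 276 genes were higher and 116 lower, of which 273 and 111 were also called by the fit over 6 livers. Without either sham liver no gene was called, although 1725 or 1684 genes were higher and 1052 or 1067 lower at an unadjusted p under 0.05 without sham liver 1 or sham liver 2. The livers of the third group, labelled intra-C, enter the filter and the estimate of the spread, and leaving out one of them left 375 or 348 higher and 168 or 144 lower genes. The 2 livers of a group are separate samples by their labels, and no source used here says that they came from separate experiments. An exact permutation of 2 against 2 livers cannot give a two-sided p below 0.333.

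A call was taken to hold in both metastasis livers when each of them differed from the sham mean by at least 2-fold in the direction of the call and both lay beyond both sham livers. This was so for 1019 of the higher genes (91.8%) and for 464 of the lower genes (71.8%), which are 6.22% and 2.83% of the tested genes. Among the other higher genes, 47 passed the 2-fold limit in liver 1 only, 21 in liver 2 only and 23 in neither. Among the other lower genes, these numbers were 90, 31 and 61. In a second reading, each metastasis liver was tested alone against the sham livers, assuming that a lone liver varies as the other groups do. With liver 1 alone 3010 genes were higher and 2683 lower, and with liver 2 alone 1683 and 1217. Counting those among the 16370 genes above, the shares were 18.1% and 16.4% with liver 1 alone and 10.1% and 7.43% with liver 2 alone. Of the calls made with both livers, 1016 higher and 610 lower genes were also called with each liver alone, and 926 and 428 met both readings. No called gene had its livers on opposite sides of the sham mean. Over all tested genes, 1944 were at least 2-fold higher and 1137 at least 2-fold lower in both livers, and 187 (1.14%) moved 2-fold in opposite directions. A 2-fold difference in liver 1 only was more frequent (2954 genes) than one in liver 2 only (1273 genes).

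**Figure D1:**
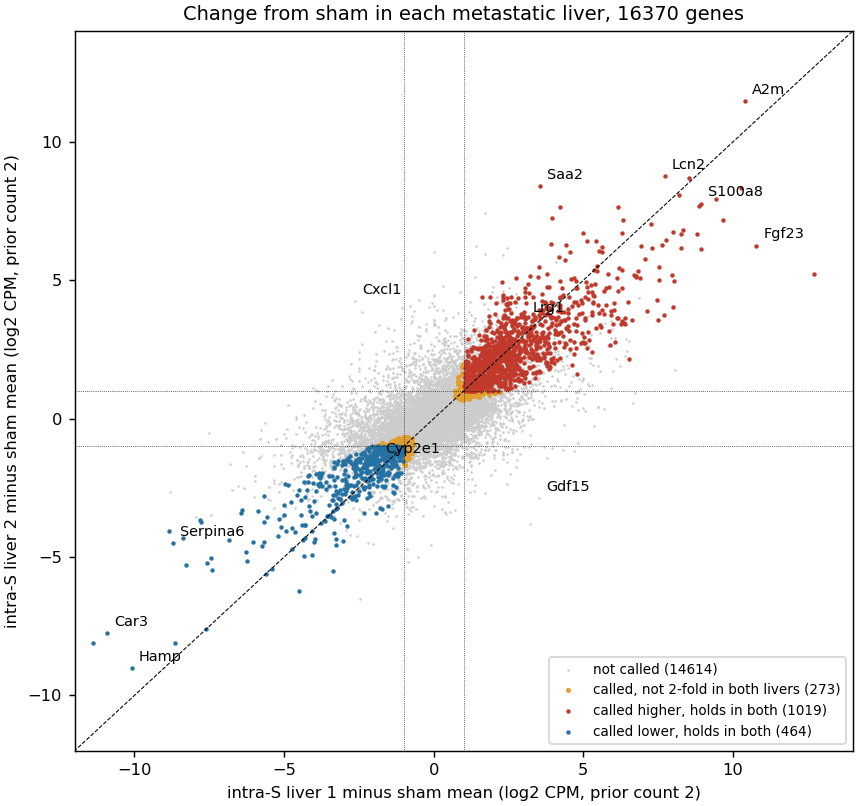
Change from the sham mean in metastasis liver 1 (x axis) and liver 2 (y axis), in log2 CPM with a prior count of 2, for each of the 16370 tested genes. Red and blue points are the 1019 higher and 464 lower genes that held in both livers, orange points are the 273 other called genes, the dashed line marks equal change and the dotted lines a 2-fold change. Fgf23 lies below the line, Saa2 above it, and the uncalled genes Cxcl1 and Gdf15 changed in opposite directions.

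The scaling of the libraries affects which direction dominates. In the sham livers, 44.9% and 44.2% of all counts fell on the 100 most abundant genes, and in the metastasis livers 59.7% and 57.2%. Scaled by library size without TMM, 838 genes were higher and 1115 lower, so that the share of higher genes among the calls fell from 63.2% to 42.9%. The median log2 fold change of all genes moved by -0.272, from 0.04 to -0.234. No gene called with TMM changed its sign, and 837 of the higher and all 646 of the lower genes were called by both scalings. Changes below are relative to the TMM scale.

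The gene lists below were written by hand with earlier results of these data known, so their counts describe the lists and are read against the 6.78% and 3.95% of all genes and the median log2 fold change of 0.04. Of 30 positive acute phase genes, 26 were higher and none was lower, with a median log2 fold change of 2.90, and 25 of the 26 held in both livers. Their summed level was 19442 and 20571 CPM in the sham livers and 117564 and 156061 CPM in metastasis livers 1 and 2. The median change was 2.54 in liver 1 and 2.92 in liver 2. Scaled by library size, 23 were higher.

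Hpx, on chromosome 7 from 105591611 to 105600116 of mm10, encodes the heme carrier hemopexin and was among the most abundant of them. It measured 3048 and 2961 CPM in the sham livers against 22707 and 25928 CPM in the metastasis livers, a log2 fold change of 3.02 (SE 0.24, adjusted p = 0.00469). Hp (chromosome 8, 109575128 to 109579172) encodes haptoglobin, which binds free hemoglobin, and rose from 2281 and 2343 to 17985 and 22316 CPM. Both genes rose by similar amounts in liver 1 and liver 2. Fgb (chromosome 3, 83042246 to 83049863), the beta chain of fibrinogen, rose from 2676 and 2792 to 13961 and 19349 CPM, a log2 fold change of 2.61 (SE 0.27, adjusted p = 0.00641). Lcn2 (chromosome 2, 32384637 to 32387739), a siderophore-binding protein made by hepatocytes and neutrophils, had 7.76 and 7.65 CPM in the sham livers but 1629 and 3401 CPM in the metastasis livers. Its log2 fold change was 8.35 (SE 0.59, adjusted p = 0.00446). A2m (chromosome 6, 121636165 to 121679238), the protease inhibitor alpha-2-macroglobulin, had 3 counts in the sham livers together and 13045 in the metastasis livers, with 108 and 229 CPM in liver 1 and liver 2. The ratio of the pooled counts was 4910, with a 95% counting interval from 1680 to 23800. These 5 genes were also called with only the metastasis and sham livers in the fit. Of 138 called genes covered by the naming rule, 63 kept the call in that fit.

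The serum amyloid A genes changed unevenly. Saa2, on chromosome 7 from 46751833 to 46754313, had 7.39 and 32.1 CPM in the sham livers, 182 CPM in liver 1 and 5268 CPM in liver 2, so that liver 2 alone carried most of the sum. The log2 fold change was 7.11 (SE 1.71, adjusted p = 0.0488), and it was not called with library size scaling (adjusted p = 0.051) or with only the metastasis and sham livers (adjusted p = 0.103). Saa1, named after its values were seen, had 17.4 and 61.1 CPM in the sham livers and 613 and 6515 CPM in liver 1 and liver 2. Saa1 and Saa2 are close paralogs, and how uniquely aligned reads divided between them was not tested. Saa4, also chosen after its values were seen, was not called, because liver 1 (66.6 CPM) lay below and liver 2 (1068 CPM) above the sham livers (278 and 230 CPM).

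**Figure D2:**
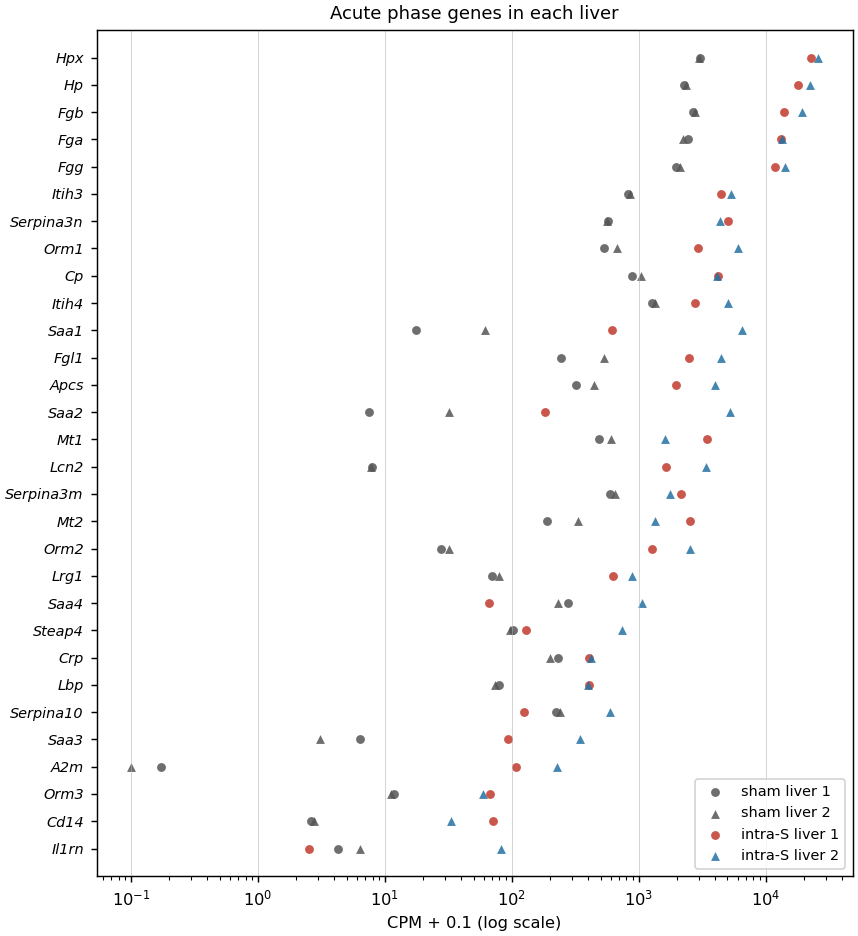
Level of each of the 30 positive acute phase genes in each liver, in CPM plus 0.1 on a log scale, with sham livers in grey, metastasis liver 1 in red and metastasis liver 2 in blue. Both metastasis livers lie above both sham livers for 27 genes, and Saa4, Il1rn and Serpina10 are higher in liver 2 only.

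The promoters of acute phase genes are shown because 26 of these genes moved together. They are the 250 bases before the RefSeq start site in GRCm38.p6, 5′ to 3′ on the strand of the gene, and capitals mark matches to the letters TTCNNNGAA, the palindrome bound by STAT factors, or TTGCNNAA, a core bound by C/EBP factors, searched on both strands. These letters and the genes shown were chosen after the values were known. The first 3 genes rose and hold a match to TTGCNNAA, at base -182 from the start site for Saa1, -120 for Orm2 and -216 for Lcn2. Fgb holds both, at bases -162 and -80, and Itih4 holds TTCNNNGAA at base -51. Hamp, which fell, holds TTCNNNGAA at base -97, and Lrg1, which rose, holds neither.
Saa1, chr7:46742981-46743230, minus strand: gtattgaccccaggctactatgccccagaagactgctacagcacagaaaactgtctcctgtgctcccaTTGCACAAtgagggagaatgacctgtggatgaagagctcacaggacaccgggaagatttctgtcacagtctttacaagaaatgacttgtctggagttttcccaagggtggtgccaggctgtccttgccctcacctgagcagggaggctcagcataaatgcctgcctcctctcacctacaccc
Orm2, chr4:63362199-63362448, plus strand: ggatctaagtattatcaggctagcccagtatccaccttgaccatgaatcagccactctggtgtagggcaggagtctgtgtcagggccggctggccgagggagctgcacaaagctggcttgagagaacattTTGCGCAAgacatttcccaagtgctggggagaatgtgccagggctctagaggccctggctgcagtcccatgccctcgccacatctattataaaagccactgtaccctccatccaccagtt
Lcn2, chr2:32387740-32387989, minus strand: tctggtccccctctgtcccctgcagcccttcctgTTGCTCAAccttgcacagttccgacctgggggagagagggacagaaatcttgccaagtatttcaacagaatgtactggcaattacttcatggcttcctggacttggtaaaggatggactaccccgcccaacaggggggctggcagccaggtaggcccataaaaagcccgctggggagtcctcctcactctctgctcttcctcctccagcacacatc
Fgb, chr3:83049864-83050113, minus strand: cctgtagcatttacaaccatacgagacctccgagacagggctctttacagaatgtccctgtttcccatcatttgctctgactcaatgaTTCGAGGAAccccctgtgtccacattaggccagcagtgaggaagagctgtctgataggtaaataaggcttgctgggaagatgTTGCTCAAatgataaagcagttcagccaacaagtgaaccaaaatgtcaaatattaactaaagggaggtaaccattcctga
Itih4, chr14:30886226-30886475, plus strand: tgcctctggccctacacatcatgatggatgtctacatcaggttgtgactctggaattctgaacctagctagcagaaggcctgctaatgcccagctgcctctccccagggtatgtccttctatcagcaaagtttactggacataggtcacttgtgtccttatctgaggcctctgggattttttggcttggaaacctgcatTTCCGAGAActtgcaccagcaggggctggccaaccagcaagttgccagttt
Hamp, chr7:30944030-30944279, minus strand: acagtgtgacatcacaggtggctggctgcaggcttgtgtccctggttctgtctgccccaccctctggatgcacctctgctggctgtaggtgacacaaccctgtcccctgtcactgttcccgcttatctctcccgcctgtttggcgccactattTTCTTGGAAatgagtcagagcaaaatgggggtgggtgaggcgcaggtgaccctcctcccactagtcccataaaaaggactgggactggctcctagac
Lrg1, chr17:56121947-56122196, minus strand: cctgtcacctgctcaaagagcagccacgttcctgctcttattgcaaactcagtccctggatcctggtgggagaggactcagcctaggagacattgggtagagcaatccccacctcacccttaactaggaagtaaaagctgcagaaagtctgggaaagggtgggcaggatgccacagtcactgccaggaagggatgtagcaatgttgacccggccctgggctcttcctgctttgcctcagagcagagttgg

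Of the 30 acute phase genes, 22 had a promoter in the RefSeq table, and 13 of them (59.1%) held TTGCNNAA and 5 (22.7%) held TTCNNNGAA. The promoters of Saa1 and Saa2 are nearly the same in this window, as are those of Orm2 and Orm3. Matches in such paralogs are not independent. Counted in the same way per gene, 10.1% and 7.51% of the tested genes with a promoter held these letters, and the shares among all 32851 promoters were 9.56% and 7.02%. Among the 773 matched genes that were higher in both livers, the shares were 14.1% and 8.67%, and among the 367 matched genes that were lower in both livers they were 14.7% and 7.63%. Of 30 matched P450 genes, 9 (30%) held TTGCNNAA and 1 (3.33%) held TTCNNNGAA. In 11 matched neutrophil precursor genes these were 3 (27.3%) and 2 (18.2%). In 16 matched genes of fatty acid oxidation and ketogenesis they were 2 (12.5%) and 3 (18.8%). A match describes the letters in this window and no more.

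Lrg1, on chromosome 17 from 56119678 to 56121946, encodes leucine-rich alpha-2-glycoprotein, the secreted protein that the study follows. It measured 69.6 and 79.3 CPM in the sham livers against 622 CPM in liver 1 and 892 CPM in liver 2, which do not overlap. This was a 10.2-fold difference of the group means, with a log2 fold change of 3.35 (SE 0.27, adjusted p = 0.00469), and it was also called with only these 4 livers (adjusted p = 0.031). Of 15 genes of IL-6 and STAT3 signaling, 5 were higher and 1 lower, all in both livers, with a median log2 fold change of 1.44. Il6 itself was close to the limit, with 2 counts in the sham livers together and 1.40 and 0.515 CPM in the metastasis livers. The ratio of pooled counts was 39.0 with a counting interval from 10.4 to 328, and it was not called (adjusted p = 0.0601). Stat3 (chromosome 11, 100886806 to 100939594) measured 67.0 and 62.4 CPM in the sham and 134 and 130 CPM in the metastasis livers, a log2 fold change of 1.03 (SE 0.18, adjusted p = 0.0236). The call was lost with library size scaling (adjusted p = 0.0537) and with only these 4 livers (adjusted p = 0.0674). Socs3, the STAT3 target that restrains the pathway, rose from 1.40 and 2.22 to 9.86 and 31.0 CPM. Junb, a transcription factor of the AP-1 group, rose from 4.68 and 9.01 to 108 and 54.4 CPM. The lower gene was Lifr (chromosome 15, 7090610 to 7197489), the receptor of leukemia inhibitory factor, with 314 and 328 CPM in the sham and 80.0 and 107 CPM in the metastasis livers. Cebpb (113, 53.8, 214 and 100 CPM in sham 1, sham 2, liver 1 and liver 2) and Il6ra (36.6, 26.1, 71.5 and 24.1 CPM) were not called and their groups overlapped.

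Receptors proposed for LRG1 and genes of TGF-beta signaling were mostly not called by edgeR, with 3 of 16 higher, none lower and a median log2 fold change of 0.80. At an unadjusted p under 0.05, 8 were higher and none lower, against 17.2% and 13% of all genes. DESeq2 called 7 higher and none lower. Tgfb1, the most studied ligand of the family, rose from 3.72 and 3.51 to 12.3 and 10.5 CPM (log2 fold change 1.66, SE 0.28, adjusted p = 0.0198). Tgfbr2 measured 22.9 and 20.1 CPM in the sham and 20.8 and 27.9 CPM in the metastasis livers and did not pass the test (adjusted p = 0.613). Egfr had 44.2 and 61.0 CPM against 108 and 210 CPM, just short of the threshold (adjusted p = 0.0544).

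Genes of plasma carrier proteins, many of which are known to fall in an acute phase response, did not move one way. Of 16, 7 were higher and 3 lower, all in both livers, with a median log2 fold change of 0.88. Trf, which encodes transferrin, rose from 22886 and 25106 to 63711 and 57874 CPM (log2 fold change 1.34, SE 0.24, adjusted p = 0.0232). Serpina1d, an alpha-1-antitrypsin paralog, rose from 11.5 and 18.6 to 1176 and 2118 CPM, with reads that are hard to tell from those of its paralogs. Apoa4 rose in both livers but unequally, from 136 and 218 CPM to 10201 CPM in liver 1 and 1099 CPM in liver 2. Alb, the most abundant of the list, measured 94260 and 87423 CPM in the sham and 156594 and 108439 CPM in the metastasis livers and was not called (adjusted p = 0.296). The gene of corticosteroid-binding globulin, Serpina6, fell from 1197 and 1047 CPM to 2.62 and 49.1 CPM.

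Genes made in neutrophil precursors gave the largest changes of all lists with at least 10 tested genes. All 12 were higher in both livers, and 7 of them had no count in any sham liver. The median log2 fold change was 7.03 when these 7 genes were set to the bound that the limit of 3 counts allows. The precursor list summed to 25.4 and 33.8 CPM in the sham livers, most of it from Lyz2, which macrophages also express, and to 550 and 382 CPM in the metastasis livers. Mpo (chromosome 11, 87793784 to 87804412), myeloperoxidase, had no count in the sham livers and reached 19.3 and 21.7 CPM in liver 1 and liver 2, at least 277-fold higher. Camp (chromosome 9, 109847377 to 109849456), the antimicrobial peptide cathelicidin, had no count in the sham livers and reached 36.1 and 12.6 CPM, at least 329-fold higher. Elane, neutrophil elastase, had no sham count and reached 7.90 and 6.75 CPM, at least 99.1-fold higher. These bounds are for the mean of the metastasis livers against 3 counts in each sham library. Bounds for single livers were 261-fold and 293-fold for Mpo and 488-fold and 171-fold for Camp in liver 1 and liver 2.

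Of 19 genes of mature neutrophils, 18 were higher, all in both livers, and none was lower, and the list summed to 12.6 and 15.7 CPM in the sham livers, 910 CPM in liver 1 and 417 CPM in liver 2. S100a8 (chromosome 3, 90669071 to 90670034) and S100a9 (chromosome 3, 90692630 to 90695721) encode the subunits of calprotectin, an abundant protein of neutrophil cytosol. S100a8 measured 0.394 and 0.634 CPM in the sham livers and 272 and 121 CPM in liver 1 and liver 2, a log2 fold change of 8.56 (SE 0.68, adjusted p = 0.00469). S100a9 measured 1.53 and 2.15 CPM against 403 and 165 CPM. Liver 1 was above liver 2 in both genes, in contrast to the acute phase genes Lcn2, A2m and Saa2. Of the other defining markers, Ly6g rose from 0.0739 and 0.0905 to 6.04 and 2.28 CPM and Csf3r, the receptor of G-CSF, from 1.33 and 1.40 to 14.3 and 10.1 CPM. In bulk liver, more cells of a type and more RNA per cell cannot be told apart, nor can fewer cells and less RNA per cell, and this holds for each cell type list here. Itgam, which encodes CD11b, rose from 0.197 and 0.498 to 16.2 and 15.0 CPM. Mmp9 rose from 0.0739 and 0.362 to 8.89 and 2.99 CPM (log2 fold change 4.73, SE 0.94, adjusted p = 0.0307).

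Of 16 genes of monocytes and recruited macrophages, 8 were higher, all in both livers, with a median change of 1.81 in liver 1 and 3.08 in liver 2. Fn1, which hepatocytes also make, was among the 8. It gave 910 and 936 CPM of the list's 994.5 and 1053 CPM in the sham livers. In liver 1 and liver 2 it gave 3510 and 3154 of 4088 and 3918 CPM. Cd9, a tetraspanin, rose from 3.89 and 14.8 to 297 and 110 CPM, and Trem2, a lipid receptor of macrophages, rose from 0.296 and 0.136 to 1.81 and 2.67 CPM. F13a1, which encodes the A chain of coagulation factor XIII, rose from 0.0985 and 0.136 to 4.02 and 5.50 CPM. Of 12 Kupffer cell genes, 7 were higher in both livers and none was lower, with a summed level of 398 and 421 CPM in the sham livers and 958 and 1214 CPM in the metastasis livers. Clec4f, a lectin that marks resident Kupffer cells, rose from 76.8 and 76.8 to 163 and 318 CPM (log2 fold change 1.64, SE 0.35, adjusted p = 0.036), a call lost with library size scaling (adjusted p = 0.0683) and with only these 4 livers (adjusted p = 0.0769). Marco, a scavenger receptor, rose from 0.986 and 1.83 to 19.2 and 37.9 CPM. Cd163, the hemoglobin-haptoglobin receptor, rose from 13.3 and 10.1 to 60.4 and 72.3 CPM, which was also called with only these 4 livers. Timd4, a defining marker of resident cells, measured 5.30 and 5.61 CPM against 9.22 and 21.3 CPM and was not called (adjusted p = 0.0626).

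No gene of T and NK cells (15 tested) or of B and plasma cells (10 tested) was called by edgeR's quasi-likelihood test. At an unadjusted p under 0.05, 3 genes of T and NK cells were higher and 0 of B and plasma cells, and DESeq2 called 1 and 0. The T and NK list summed to 9.46 and 8.24 CPM in the sham and 12.9 and 19.3 CPM in the metastasis livers, so its genes were measured at a low depth. The defining T cell gene Cd3d had 0.296 and 0.385 CPM in the sham and 2.48 and 0.859 CPM in the metastasis livers (adjusted p = 0.135). Cd8a had 0.123 and 0.181 CPM against 0.787 and 1.72 CPM, with an adjusted p of 0.0543. The more abundant Cd4 (1.26 and 0.656 against 1.08 and 1.45 CPM) and Il2rb (2.24 and 2.06 against 1.52 and 2.90 CPM) had overlapping groups. The median log2 fold change of the T and NK list was 0.906. Of 12 dendritic cell genes, Irf8, a transcription factor also used by monocytes, was the one that was called, with 3.87 and 3.31 CPM against 13.9 and 14.4 CPM. Of 18 genes of immune suppression and checkpoints, 12 were tested, and the others were left out by the filter or not analysed here. Among those tested, 6 were higher in both livers and none was lower. With library size scaling 5 were higher and 1 lower. Pdcd1, the gene of PD-1, had no sham count and 0.554 and 0.294 CPM in liver 1 and liver 2 (adjusted p = 0.0543).

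Of 13 chemokine genes, 4 were higher and 1 lower, all in both livers. Ccl6, a chemokine of myeloid cells, rose from 2.91 and 5.12 to 73.5 and 80.7 CPM (log2 fold change 4.26, SE 0.34, adjusted p = 0.00469). Cxcl14 (chromosome 13, 56288643 to 56296811) had no count in the sham livers and reached 15.2 and 14 CPM in liver 1 and liver 2, at least 197-fold higher. Cxcl13, a B cell attractant, rose from 0.0493 and 0.272 to 2.33 and 2.38 CPM. Cxcl12, the ligand of CXCR4, fell from 321 and 354 to 88.9 and 141 CPM (log2 fold change -1.55, SE 0.28, adjusted p = 0.0241), which was not called with only these 4 livers (adjusted p = 0.0674). Cxcl1, a neutrophil attractant, went opposite ways in the metastasis livers, with 15.7 and 6.32 CPM in the sham livers, 1.57 CPM in liver 1 and 191 CPM in liver 2, and was not called.

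Of 18 endothelial genes, 7 were higher, 5 of them in both livers, and none was lower. All 18 lay above both sham livers in both metastasis livers, against 30.4% of all genes, and 13 and 16 were called higher with liver 1 alone and liver 2 alone, against 18.1% and 10.1% of all genes. Vcam1, an adhesion molecule for leukocytes, rose from 15.1 and 10.1 to 115 and 89.5 CPM (log2 fold change 3.02, SE 0.29, adjusted p = 0.00579). Lyve1, the hyaluronan receptor of sinusoidal and lymphatic endothelium, rose from 1.70 and 0.951 to 112 CPM in liver 1 and 14.2 CPM in liver 2. Stab2, a scavenger receptor of sinusoids, had 21.5 and 22.4 CPM in the sham, 89.4 CPM in liver 1 and 42.1 CPM in liver 2, and passed the 2-fold limit in liver 1 only. Vwf had 2.19 and 2.76 CPM in the sham and 54.2 and 12.0 CPM in the metastasis livers and was not called (adjusted p = 0.0617). Of 21 genes of extracellular matrix and its remodeling, 12 were higher in both livers and none was lower, with a summed level of 215 and 205 CPM in the sham and 607 and 498 CPM in the metastasis livers. Thbs1, thrombospondin 1, rose from 0.148 and 0.589 to 24.8 and 12.1 CPM. Lox, which crosslinks collagen, had 1 count in the sham livers together and 12.7 and 0.785 CPM in liver 1 and liver 2, a ratio of 529 (interval 94.4 to 20900). Timp1, an inhibitor of matrix proteases, had 2 sham counts and 1.02 and 5.57 CPM, a ratio of 148 (interval 40.6 to 1230). Fn1 (chromosome 1, 71585473 to 71653280), fibronectin, is made by hepatocytes and by fibroblasts and rose from 910 and 936 to 3510 and 3154 CPM (log2 fold change 1.85, SE 0.23, adjusted p = 0.00937). Fn1 was counted in the monocyte and macrophage list and not in this matrix list. Of 13 genes of stellate cells and fibroblasts, 3 were higher, 2 in both livers, and 1 was higher with library size scaling. One was Dcn, decorin, with 144 and 134 CPM against 280 and 249 CPM, and it was not called with library size scaling (adjusted p = 0.0723).

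Of 16 intestinal epithelial genes, 6 were tested, 4 were left out by the filter on low counts and 6 were not analysed here. Of those tested, Krt18 was the one called. Krt18, which hepatocytes also express, had 72.6 and 99.5 CPM in the sham and 231 and 168 CPM in the metastasis livers, passed the 2-fold limit in liver 1 only and was not called with library size scaling. Krt8, its partner, was not called, with 126 and 135 CPM against 306 and 164 CPM. Fabp2, a fatty acid carrier of enterocytes, had 34.4 and 50.6 CPM in the sham, 5.66 CPM in liver 1 and 24.1 CPM in liver 2 (adjusted p = 0.163). Lgals4, a galectin of the gut epithelium, had 28.9 and 25.2 CPM against 9.10 and 7.12 CPM (adjusted p = 0.0601), and it was called lower with library size scaling (adjusted p = 0.0453) and with only these 4 livers (adjusted p = 0.0452). With library size scaling the list had 0 higher and 1 lower gene. The defining epithelial marker Epcam had 0.148 and 0.702 CPM in the sham and 0.379 and 0.344 CPM in the metastasis livers, and Krt19 had 0.222 and 0.860 CPM against 0.292 and 0.540 CPM. The share of tumor cell RNA in these livers was not tested. Of 7 oncofetal genes tested, 4 were higher in both livers. Afp (chromosome 5, 90490714 to 90508907), the fetal plasma protein alpha-fetoprotein, rose from 3.55 and 3.83 to 273 and 164 CPM (log2 fold change 5.89, SE 0.56, adjusted p = 0.00579). H19, an imprinted non-coding RNA, rose from 154 and 145 to 763 and 1439 CPM, and Peg3, an imprinted zinc finger gene, rose from 6.50 and 7.99 to 68.5 and 58.4 CPM. Igf2 had 1.38 CPM in each sham liver, 52.7 CPM in liver 1 and 3.17 CPM in liver 2 and was not called (adjusted p = 0.0866). Of 31 cell cycle genes, 9 were higher and 1 lower in both livers, and 24 lay above both sham livers in both metastasis livers, against 30.4% of all genes. With library size scaling 5 were higher and 1 lower. Mki67, a nuclear protein of dividing cells, rose from 6.26 and 3.06 to 47.7 and 28.1 CPM (log2 fold change 3.03, SE 0.45, adjusted p = 0.015). The lower gene was Tk1, thymidine kinase 1, with 60.7 and 61.1 CPM against 7.79 and 13.3 CPM. With library size scaling 5 cell cycle genes were higher.

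Of 17 genes of hypoxia and glycolysis, 6 were higher in both livers and none was lower, with a median change of 2.90 in liver 1 and 0.62 in liver 2. With liver 1 alone 15 were called higher, against 18.1% of all genes, and with liver 2 alone 6 were higher and 2 lower, against 10.1% and 7.43%. Ldha, lactate dehydrogenase A, held in both, with 421 and 461 CPM in the sham and 1962 and 1634 CPM in the metastasis livers (log2 fold change 2.03, SE 0.23, adjusted p = 0.00782). Ndrg1 rose from 2.71 and 3.17 CPM to 276 CPM in liver 1 and 13.2 CPM in liver 2. Bnip3, a mitophagy receptor, had 239 and 282 CPM in the sham livers, 2316 CPM in liver 1 and 250 CPM in liver 2, and was not called (adjusted p = 0.141). Pgk1, phosphoglycerate kinase 1, had 283 and 263 CPM in the sham, 813 CPM in liver 1 and 234 CPM in liver 2. Adm, adrenomedullin, had 0.591 and 0.498 CPM in the sham, 19.1 CPM in liver 1 and 1.05 CPM in liver 2.

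**Figure D3:**
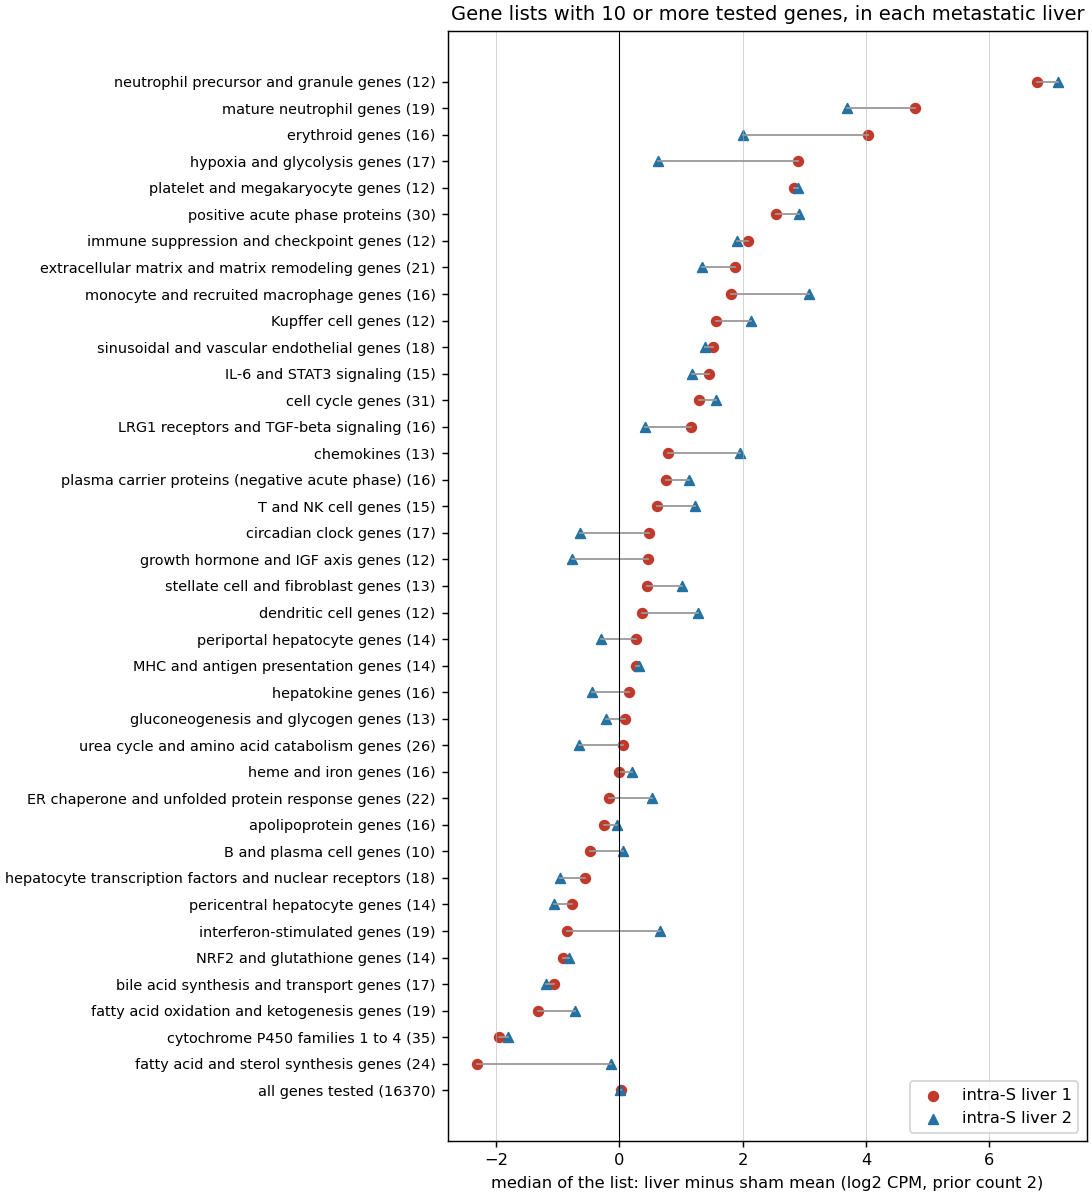
Median change from the sham mean in metastasis liver 1 (red circles) and liver 2 (blue triangles) for each list with at least 10 tested genes, in log2 CPM with a prior count of 2, with the number of tested genes in parentheses. Neutrophil precursor, acute phase and P450 lists moved by similar amounts in both livers, whereas the medians of the hypoxia and fatty acid synthesis lists were 2.90 and 0.62, and -2.31 and -0.135.

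Cytochrome P450 genes, whose enzymes oxidize drugs, steroids and fatty acids, had 35 tested members of families 1 to 4. Of these, 19 were lower, 18 of them in both livers, and 1 was higher, with a median log2 fold change of -1.74. Both metastasis livers lay below both sham livers for 32 genes, against 30% of all genes. With liver 1 alone 27 genes were called lower, and with liver 2 alone also 27, against 16.4% and 7.43% of all genes. The list summed to 23891 and 22007 CPM in the sham livers and 6566 and 7023 CPM in the metastasis livers. Cyp2e1 (chromosome 7, 140763819 to 140774990), which oxidizes ethanol and is usual around the central vein, fell from 7687 and 7172 to 2059 and 2607 CPM (log2 fold change -1.67, SE 0.23, adjusted p = 0.0134). With only these 4 livers it was not called (adjusted p = 0.0574). Cyp1a2 (chromosome 9, 57676937 to 57683655), the enzyme of caffeine oxidation, had unequal sham livers (1467 and 502 CPM) and fell to 16.8 and 39.1 CPM (log2 fold change -5.14, SE 0.68, adjusted p = 0.0115). Cyp2a5 (chromosome 7, 26835339 to 26843264), a coumarin hydroxylase, fell from 2161 and 1988 to 41.0 and 154 CPM. Cyp2c69 fell from 99.7 and 299 to 10.2 and 5.62 CPM, though reads of the Cyp2c paralogs are hard to tell apart. Cyp3a11, the main hepatic P450 of its family, had 1767 and 1462 CPM in the sham, 1055 CPM in liver 1 and 458 CPM in liver 2 and was not called (adjusted p = 0.126). The higher gene was Cyp3a13, named after its values were seen, with 82.0 and 70.1 CPM against 148 and 137 CPM, and it was not called with library size scaling.

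**Figure D4:**
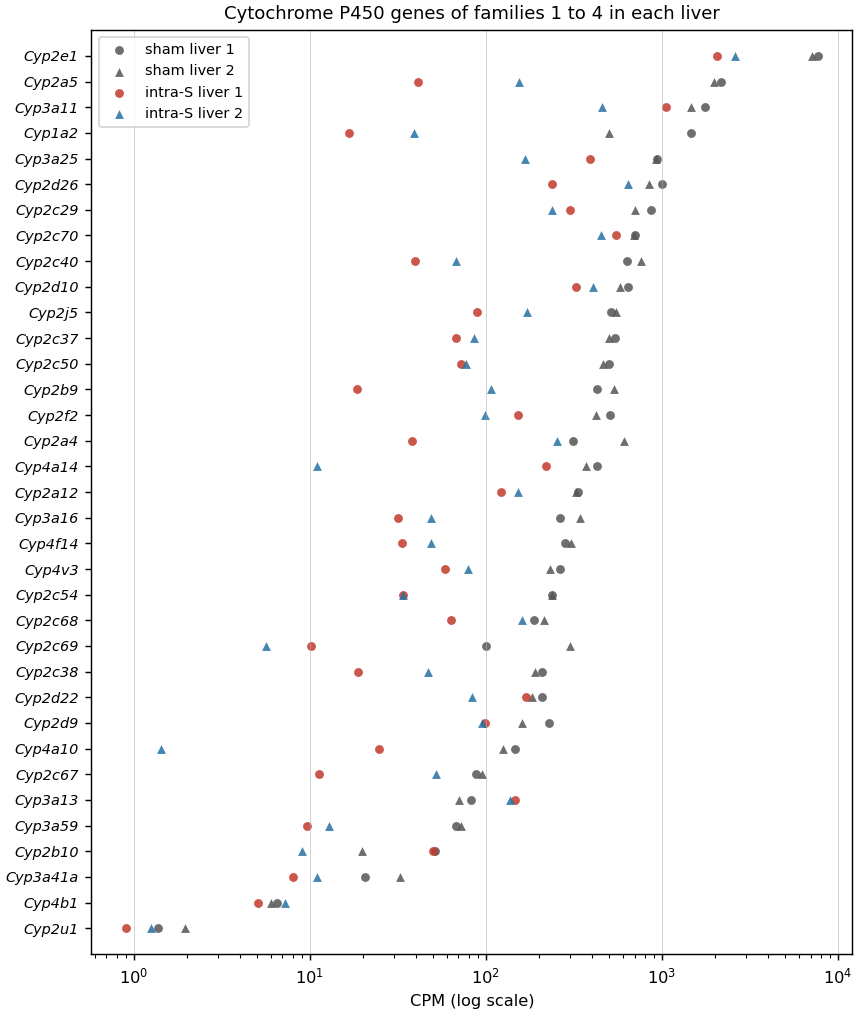
Level of each of the 35 tested P450 genes of families 1 to 4 in each liver, in CPM on a log scale, with sham livers in grey, metastasis liver 1 in red and metastasis liver 2 in blue. Both metastasis livers lie below both sham livers for 32 genes, and Cyp3a13 lies above them.

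Of 17 genes of bile acid synthesis and transport, 7 were lower, 6 of them in both livers, and none was higher. Akr1d1, a reductase of bile acid synthesis, fell from 368 and 343 to 74.1 and 99.5 CPM (log2 fold change -2.03, SE 0.23, adjusted p = 0.00782). Slc10a1, the sinusoidal bile acid importer, fell from 696 and 740 to 388 and 429 CPM, less than 2-fold in each liver. Cyp7a1, the rate-limiting enzyme of bile acid synthesis, had 191 and 150 CPM in the sham, 6.36 CPM in liver 1 and 68.5 CPM in liver 2 and was not called (adjusted p = 0.349). Of 19 genes of fatty acid oxidation and ketogenesis, 6 were lower in both livers and none was higher, and 16 lay below both sham livers in both metastasis livers, against 30% of all genes. Acot3, a peroxisomal thioesterase, fell from 156 and 160 to 0.758 and 0.761 CPM (log2 fold change -7.69, SE 1.31, adjusted p = 0.0208), and this was also called with only these 4 livers. Ehhadh, the peroxisomal bifunctional enzyme, fell from 395 and 342 to 35.8 and 47.7 CPM. Acaa1b, a peroxisomal thiolase, fell from 977 and 737 to 4.93 and 19.2 CPM.

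Of 24 genes of fatty acid and sterol synthesis, 6 were lower, 5 of them in both livers, and 1 was higher. The median change was -2.31 in liver 1 and -0.135 in liver 2, and 21 genes were called lower with liver 1 alone and 9 with liver 2 alone, against 16.4% and 7.43% of all genes. Scd1 (chromosome 19, 44394450 to 44407709), the stearoyl-CoA desaturase, held in both livers, with 2598 and 2126 CPM in the sham and 479 and 534 CPM in the metastasis livers (log2 fold change -2.22, SE 0.24, adjusted p = 0.0072). Thrsp, a lipogenic protein, fell from 1002 and 831 to 85.1 and 77.2 CPM. Insig2, which holds the sterol sensor in the ER, had 169 and 118 CPM in the sham, 3961 CPM in liver 1 and 176 CPM in liver 2 and was not called (adjusted p = 0.101). Of 26 genes of the urea cycle and amino acid breakdown, 5 were lower in both livers and none was higher. The summed level of this list was 20836 and 20213 CPM in the sham livers, 27317 CPM in liver 1 and 12564 CPM in liver 2, higher in liver 1 and lower in liver 2 than in both sham livers. With liver 1 alone 10 genes were called higher and 7 lower (18.1% and 16.4% of all genes), and with liver 2 alone none was higher and 14 were lower (10.1% and 7.43% of all genes). Otc, ornithine transcarbamylase of the urea cycle, held in both livers with 692 and 703 CPM against 185 and 236 CPM (log2 fold change -1.73, SE 0.22, adjusted p = 0.0102). Cps1, the first enzyme of the cycle, had 3585 and 3351 CPM in the sham, 5716 CPM in liver 1 and 2235 CPM in liver 2. Ass1, which joins citrulline with aspartate, had 2286 and 2510 CPM in the sham, 2904 CPM in liver 1 and 814 CPM in liver 2, and neither gene was called. Of 18 transcription factors and nuclear receptors of hepatocytes, 1 was higher and 2 lower, with 4 lower under library size scaling and 6 by DESeq2. Both metastasis livers lay below both sham livers for 12 of them, against 30% of all genes. Nr1i3, the nuclear receptor CAR, fell from 203 and 134 to 57.0 and 60.0 CPM, whereas Hnf4a had 447 and 361 CPM against 603 and 407 CPM and was not called (adjusted p = 0.486).

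The lower genes with the largest changes that held in both livers included hepcidin genes, carboxylesterases and P450 genes. Hamp (chromosome 7, 30942368 to 30944029), hepcidin, the hormone that blocks iron export from cells, fell from 537 and 536 CPM to 0.437 and 0.981 CPM. This was a 756-fold difference of the group means, with a log2 fold change of -9.54 (SE 1.18, adjusted p = 0.00965). Its neighbour Hamp2 (chromosome 7, 30922372 to 30924181) fell from 502 and 330 CPM to 0 and 0.344 CPM, and both genes were also called with only these 4 livers. Hepcidin is known as a gene that IL-6 raises. A1bg, a plasma glycoprotein, fell from 135 and 140 to 0 and 0.442 CPM. Car3 (chromosome 3, 14863538 to 14872381), carbonic anhydrase 3, fell from 1364 and 1109 to 0.583 and 5.69 CPM (log2 fold change -8.61, SE 1.31, adjusted p = 0.0156). Ces1f and Ces3b, carboxylesterases, fell from 383 and 369 to 1.17 and 9.59 CPM and from 152 and 238 to 3.53 and 7.88 CPM. Sult2a8, a sulfotransferase, fell from 488 and 519 to 2.57 and 13.6 CPM. Inmt, a methyltransferase of indoleamines, fell from 702 and 468 to 1.66 and 28.6 CPM. In each of these genes liver 1 was below liver 2, and both were far below the sham livers. Of 16 heme and iron genes, 3 were higher and 1 lower. Hmox1, heme oxygenase 1, rose from 11.9 and 11.8 to 189 and 54.6 CPM, Cp, the copper oxidase ceruloplasmin, rose from 893 and 1051 to 4223 and 4150 CPM, and Alas1, the first enzyme of heme synthesis, fell from 899 and 562 to 185 and 249 CPM.

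Of 16 erythroid genes, 10 were higher in both livers, 6 were not called and none was lower, with a median change of 4.03 in liver 1 and 2.00 in liver 2. Hbb-bs, a beta-globin gene with a close paralog, rose from 123 and 214 to 864 and 673 CPM (log2 fold change 2.19, SE 0.36, adjusted p = 0.0198). Of 12 genes of platelets and megakaryocytes, 7 were higher in both livers. Ppbp, a chemokine of platelet granules, rose from 0.394 and 0.679 to 10.5 and 17.9 CPM, and Itgb3, the integrin subunit of the platelet fibrinogen receptor, from 3.89 and 3.49 to 61.9 and 21.9 CPM. The list summed to 122 and 84.4 CPM in liver 1 and liver 2, so Itgb3 gave a large part of it. Gp1bb had no sham count and 0.817 and 0.294 CPM in the metastasis livers and was 1 of 5 not called by edgeR (adjusted p = 0.0633). How much blood each piece of liver held was not tested.

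Fgf23, the phosphate hormone usually made in bone, had the largest bound among the higher genes without a count in the sham livers. It was at 0 in both sham livers and at 90.9 CPM in liver 1 and 3.90 CPM in liver 2, at least 641-fold higher as a mean and at least 1229-fold and 52.8-fold in the single livers (adjusted p = 0.0376). With only these 4 livers it was not called (adjusted p = 0.0918). Igfbp1, a binding protein of insulin-like growth factors made by hepatocytes, rose from 71.8 and 20.6 to 4209 and 1388 CPM.

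Most of the genes that differed most between the metastasis livers were outside the calls. With 1 liver against 1 liver there is no replicate check, so these are values only. Gdf15, a stress hormone, had 3.35 and 3.08 CPM in the sham, 37.1 CPM in liver 1 and 0.393 CPM in liver 2. Atf3, a stress transcription factor, had 1.03 and 1.18 CPM in the sham, 52.2 CPM in liver 1 and 1.50 CPM in liver 2. Cited2, a partner of CBP and p300, had 16.5 and 16.7 CPM in the sham, 231 CPM in liver 1 and 6.21 CPM in liver 2. These 3 genes were above the sham level in liver 1 and near or below it in liver 2. Il1rn, the interleukin-1 receptor antagonist, was the other way round, with 4.19 and 6.27 CPM in the sham, 2.42 CPM in liver 1 and 81.8 CPM in liver 2. S100a4, a calcium-binding protein of fibroblasts and leukocytes, had 0.197 and 0.317 CPM in the sham, 0.933 CPM in liver 1 and 52.8 CPM in liver 2. Over genes with at least 10 CPM in either metastasis liver, liver 1 was more than 16-fold above liver 2 for 31 genes and liver 2 above liver 1 for 22.

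**Figure D5:**
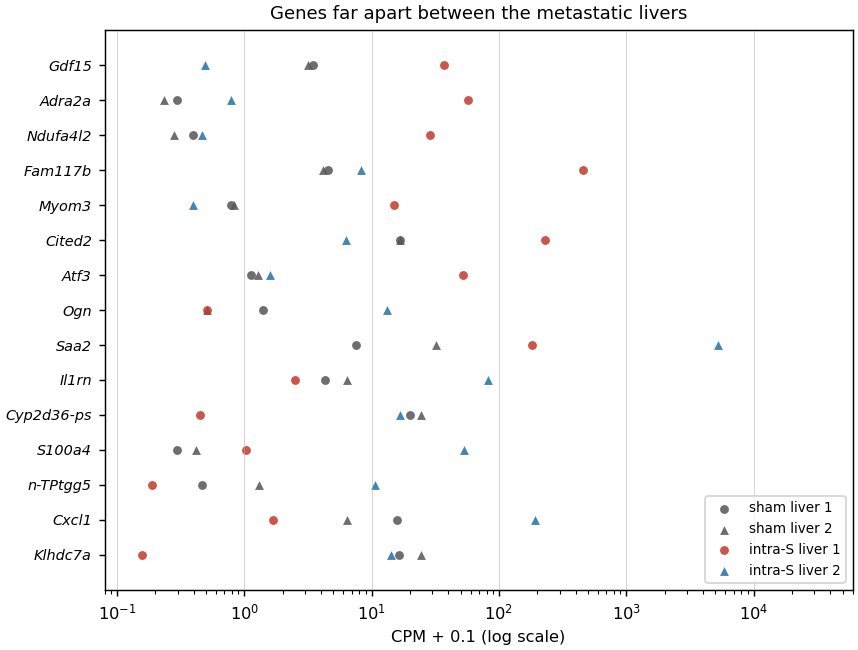
Level of genes far higher in metastasis liver 1 than in liver 2 (top rows) or the reverse (bottom rows), in CPM plus 0.1 on a log scale, with sham livers in grey, liver 1 in red and liver 2 in blue. Saa2 was the called gene among them. Liver 2 lies within 2-fold of the sham mean for Atf3, Fam117b, Klhdc7a and Cyp2d36-ps. Gdf15, Cited2, Cxcl1 and Il1rn differ from it by at least 2-fold in opposite directions.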

How the data were processed

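The bulk RNA libraries of 6 mouse livers, 2 in each group, were taken as deposited. Reads were aligned by the authors with HISAT2 2.1.0 to mm10, and uniquely mapped exon reads were counted with featureCounts of Subread 2.0.6, giving the deposited raw count per gene. The deposited TPM values divide these counts by gene length and by the sum over genes. The annotation and the use of strand in counting are not given in the sources used here, so overlapping and antisense genes were not separated, and close paralogs may share or lose reads.

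The counts of 20140 genes were tested with edgeR 4.0.16 in R 4.3.3: TMM scaling, the filterByExpr filter (count minimum 10), 1 quasi-likelihood fit over all 6 livers with a mean for each group, the contrast intra-S minus sham, and Benjamini-Hochberg adjustment over 16370 genes, called at an adjusted p-value under 0.05. The fit over 6 livers has 3 residual degrees of freedom. Log2 CPM per liver had a prior count of 2. The procedure was tested on simulated data. Where both sham livers had no count, folds are lower bounds against 3 counts per library, and with 1 to 3 counts in all they are ratios of pooled counts with 95% exact intervals. Promoters came from RefSeq (GRCm38.p6), in which all 20140 symbols were matched to a gene. Tables were made with Python 3.11.15 and pandas 2.3.3.

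The samples, the 46 gene lists and the tests were chosen with earlier results of these data known, and the lists were written by hand from general knowledge and the paper. Genes named are the 15 largest changes a direction among calls with a mean of at least 5 CPM in the higher group that held in both livers, up to 6 genes a list (the 3 most abundant and the 3 with the largest change), genes of the study, the 8 genes a direction furthest apart between the metastasis livers, and the 5 most abundant calls a direction. Not all of them are reported here, and a gene named outside this rule or the defining markers is said to be chosen after its values were seen. As 14 alternatives, the comparison was repeated with DESeq2 1.42.0, without the filter, with a minimum of 10 counts in each liver, with the intra-S and sham livers alone, with a replicate block, with library sizes unscaled by TMM, with limma 3.58.1 on log2(TPM + 1) and log2(TPM + 0.1), and each liver left out in turn.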

Additional observations from a re-analysis of the deposited data

How the results depend on the processing

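The counts of called genes changed with the test, the scaling and the livers used, several of which also change the genes that pass the filter. The 1110 higher and 646 lower genes became 2065 and 1465 with DESeq2, 276 and 116 with only the metastasis and sham livers, 685 and 1553 with limma on log2(TPM + 1), and the lower genes became 1476 with log2(TPM + 0.1) and 1115 with library size without TMM. Leaving out 1 liver gave 0 to 3010 higher and 0 to 2683 lower genes, with 0 without either sham liver (smallest adjusted p 0.071 and 0.0698) and the most without metastasis liver 2. Genes holding in both livers, 1019 and 464 in the report, were 276 and 116 with only these livers, 395 and 759 with log2(TPM + 1), and the lower ones 777 with DESeq2, 979 with log2(TPM + 0.1) and 764 with library size without TMM. They ranged from 0 to 375 and from 0 to 168 with a sham or intra-C liver left out, and no such count exists with a metastasis liver left out. The other alternatives stayed within 1.5 times, and their causes were not tested. DESeq2 called 1109 of the 1110 higher and 645 of the 646 lower genes.

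The replicate number as a block gave 954 higher and 553 lower genes, of which 887 and 487 were called without it. Deviations of livers with the same number correlated by 0.083 (sham and intra-S), -0.032 (sham and intra-C) and 0.043 (intra-S and intra-C). With a single difference per group, these values cannot tell whether the numbers mark a pairing or a shared batch.

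Of the 138 called genes covered by the naming rule, 138 kept the call with DESeq2, 126 with library size, 125 with the block, 63 with only these livers, 136 and 137 without metastasis liver 1 or 2, and 0 without a sham liver. None of them changed its sign. Among the called genes described above or below, Alas1, Apoa4, Asns, Cd9, Ces1f, Chac1, Clec4f, Cxcl12, Cxcl13, Cyp2a5, Cyp2e1, Cyp3a13, Dcn, Fabp4, Fgf23, Ghr, Gstm1, Hbb-bs, Hmox1, Igfbp1, Igfbp2, Inmt, Itgb3, Itih4, Krt18, Lox, Lyve1, Mki67, Mmp9, Ndrg1, Nr1i3, Saa1, Saa2, Serpina6, Slc10a1, Socs3, Stab2, Stat3, Tef, Tgfb1, Timp1, Trem2, Trf and Usp18 were not called with only the metastasis and sham livers (adjusted p = 0.0507 to 0.122). Some genes not called with both livers had opposite directions with 1 metastasis liver left out: the log2 fold change without liver 1 and without liver 2 was -1.417 and 3.796 for Cited2, -1.347 and 0.81 for Oat, 0.402 and -0.482 for Calr, 4.12 and -2.799 for Cxcl1, 0.949 and -0.848 for Ifitm3, and 3.971 and -1.111 for Il1rn. Depth limits genes under about 0.0875 CPM.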

Other observations

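Of 19 interferon-stimulated genes tested, 1 was higher and none lower, and the median change was -0.849 in liver 1 and 0.665 in liver 2. With liver 1 alone 9 were called lower and 1 higher, and with liver 2 alone 7 were called higher and none lower. Of all genes, 16.4% were lower and 18.1% higher with liver 1 alone, and 7.43% lower and 10.1% higher with liver 2 alone. Usp18, which restrains interferon signaling, was the called gene and rose in both livers, from 10.2 and 7.65 to 57.7 and 23.2 CPM (log2 fold change 2.17, SE 0.46, adjusted p = 0.0351). No MHC gene of 14 was called by edgeR, while an unadjusted p under 0.05 was reached by 5 in the higher and 1 in the lower direction, and DESeq2 called 2 higher. H2-Aa, a class II gene of antigen-presenting cells, had 8.52 and 7.95 CPM in the sham and 12.9 and 26.2 CPM in the metastasis livers (adjusted p = 0.066).

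Of 22 genes of ER folding and the unfolded protein response, 2 were higher and none was lower, with medians of -0.173 in liver 1 and 0.535 in liver 2. The called genes were Asns, asparagine synthetase, with 0 and 0.181 CPM in the sham and 5.34 and 7.97 CPM in the metastasis livers, and Chac1, which degrades glutathione, with 2.66 and 1.27 CPM against 17.9 and 10.8 CPM. Of 14 genes of NRF2 and glutathione, 6 were lower in both livers and none was higher. Gsta1, with close paralogs, fell from 2.00 and 2.35 CPM to 0 in both metastasis livers, and Gstm1 fell from 759 and 637 to 269 and 109 CPM. Of 17 circadian clock genes, 2 were lower and neither passed the 2-fold limit in both livers. Tef, a clock output factor and one of them, had 154 and 178 CPM in the sham and 69.7 and 95.9 CPM in the metastasis livers, and no hour of collection is used here. Of 12 genes of the growth hormone axis, 3 were lower and 1 higher in both livers, with Ghr, the growth hormone receptor, at 542 and 538 CPM against 140 and 233 CPM and Igfbp2 at 161 and 199 CPM against 595 and 523 CPM. Of 14 genes of the pericentral zone 2 were lower and none was higher, with 4 lower under library size scaling and 5 by DESeq2. Their summed level was 12839 and 11394 CPM in the sham and 5527 and 4364 CPM in the metastasis livers. Of 14 genes of the periportal zone 3 were lower and none was higher, and the sign of the median (0.192) turned with library size scaling (-0.102). Among the other lists were hepatokines (1 higher and 2 lower of 16, with Hamp and Hamp2 as the lower genes), apolipoproteins and lipases (1 higher and 3 lower of 16), gluconeogenesis and glycogen (2 higher of 13, but 1 higher and 2 lower with library size scaling) and cholangiocytes (2 higher and 1 lower of 8, with 1 higher under library size scaling).

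Of 3 tested genes of the exocrine pancreas, 1 was called, and of 3 tested genes of fat cells also 1. Amy2b, an amylase of the exocrine pancreas, rose from 0.394 and 0.113 to 10.9 and 5.99 CPM, and Fabp4, a fatty acid carrier of fat cells and endothelium, rose from 4.71 and 3.85 to 145 and 28.6 CPM. Cela1, a pancreatic elastase, had 17.3 and 26.3 CPM in the sham, 20.5 CPM in liver 1 and 5.15 CPM in liver 2 and was not called. The fat cell genes Plin4 (12.7, 5.37, 36.1 and 4.46 CPM in sham 1, sham 2, liver 1 and liver 2) and Cidec (2.88, 2.47, 4.08 and 1.40 CPM) were not called either. No mesothelial gene of 6 and no muscle gene of 2 was called by edgeR, with 0 at an unadjusted p under 0.05 and 0 by DESeq2.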
